A study of Mus musculus with 18 samples.

Results

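RAD21 had a peak in every list at 11790 places in the genome of a mouse pro-B cell line that lay far from every gene start and carried no peak of NIPBL. Overlapping peaks of 10 RAD21 ChIP-seq peak lists on the 19 autosomes and X were merged into 155581 regions, of which 25633 had a peak in each of the 10 lists and are called constant here. Of these, 18625 lay more than 5000 bp from every annotated gene start, and the 11790 that in addition shared no base with a peak of any of 4 NIPBL lists are called NIPBL-free distal sites. They made up 63.3% of the constant distal regions, 46.0% of the constant regions and 7.58% of all merged regions. The other constant regions were 6835 distal regions with NIPBL, 2896 regions near a start without NIPBL and 4112 near a start with NIPBL. The sites were chosen by the presence of RAD21 and NIPBL peaks in these same lists, so their presence in every RAD21 list and the absence of NIPBL are a description and were not tested.

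The libraries came from a v-Abl transformed pro-B cell line, B cell precursors immortalised by a viral kinase, which the study used to examine loop extrusion in the joining of immunoglobulin heavy chain gene segments. All groups shared the labels JH-del, dCas9 expressing, Emu-Bcl2 and RAG2 deficient, where dCas9 is a form of Cas9 with no nuclease activity that sits on its target and RAG2 is part of the recombinase of antigen receptor genes. The dCas9 block group (2 RAD21 lists, 2 NIPBL lists) also expressed a guide RNA labelled Sg1-sgRNA, and the dCas9 control group (2 RAD21 lists, 2 NIPBL lists) did not. The Ig2b deleted group (3 RAD21 lists) was labelled Ig2b-del/del, and the Ig2b wild type group (3 RAD21 lists) carried the shared alleles alone. STI-571, an inhibitor of the Abl kinase that halts the cell cycle of such lines, was given to all cells at 3 uM over 4 days. The labels do not say whether the replicates of a group were separate cultures or clones, so the p-values measure the spread between libraries, which may be technical. NIPBL was mapped in the dCas9 cells and not in the Ig2b cells.

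Cohesin is a ring-shaped complex that holds DNA loops, and RAD21 is the subunit that closes the ring. NIPBL helps cohesin onto chromatin and drives the extrusion of loops, while CTCF, a zinc finger protein that binds DNA at a directional motif, stops cohesin and so fixes loop ends. CTCF sites at the ends of a loop usually point towards each other. In lymphocyte precursors such loops bring distant segments of antigen receptor loci to the recombinase.

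Of the 8 NIPBL-free distal sites with the most enriched RAD21, 7 carried a close match to the CTCF motif at their centre, near the share among all such sites (79.1%). Sites were ranked by fold percentile, which is the place of a site's highest peak fold among all peaks of the same list, averaged over the 10 lists. The fold is the authors' enrichment value from the peak caller. The 8 highest sites are shown because they carry the strongest RAD21 of the set. Each line gives 60 bases of NCBIM37 (mm9), written 5′ to 3′ on the strand of the match. Capitals mark the 12 bases within 50 bp of the site's centre that are closest to the CTCF core with the base after it. The core searched is CCA, 2 free bases, AG, 2 free bases and GG, and with a C after it 8 letters are fixed. The centre of a site is the middle of the bases that the most lists cover.
Intron of Ctnnbip1, chr4:148917436-148917495, minus strand: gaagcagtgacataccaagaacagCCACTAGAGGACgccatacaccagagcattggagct
Intron of Osbpl5, chr7:150892821-150892880, plus strand: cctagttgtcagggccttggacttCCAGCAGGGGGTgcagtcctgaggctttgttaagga
Intergenic, nearest start Cacna1e, chr1:156633560-156633619, plus strand: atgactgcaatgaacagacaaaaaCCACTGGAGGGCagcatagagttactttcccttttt
Intergenic, nearest start Gm15849, chr1:134252568-134252627, minus strand: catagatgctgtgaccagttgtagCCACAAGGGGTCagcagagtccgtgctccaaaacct
Intergenic, nearest start Chmp6, chr11:119766405-119766464, plus strand: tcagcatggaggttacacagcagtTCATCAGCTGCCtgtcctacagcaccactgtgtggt
Intergenic, nearest start SNORA17, chr3:126606616-126606675, minus strand: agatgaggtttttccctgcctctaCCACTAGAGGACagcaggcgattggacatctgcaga
Intergenic, nearest start Trim56, chr5:137607494-137607553, plus strand: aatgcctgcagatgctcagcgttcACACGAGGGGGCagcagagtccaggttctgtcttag
Intron of Lrrc28, chr7:74775904-74775963, minus strand: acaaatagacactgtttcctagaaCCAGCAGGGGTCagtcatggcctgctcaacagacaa

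In 7 of these 8 sites exactly 1 of the 8 fixed letters was off, and in the site near Chmp6, which encodes a subunit of the membrane-remodelling ESCRT machinery, 2 were off, a looser match for which no background share was computed. The exact core was absent from 7 of the 8 whole regions, and the Osbpl5 site held it. Of all NIPBL-free distal sites 61.8% held it. The search with up to 1 letter off was chosen after the first values were seen. Up to 1 letter off was found within 50 bp of the centre in 9326 of the 11790 NIPBL-free distal sites (79.1%), in 57.4% of the distal regions with NIPBL, in 80.8% of the regions near a start without NIPBL and in 55.2% of those near a start with NIPBL. Of all 100 bp windows of the genome, 6.41% held it. A match is a description of the letters and not a measured CTCF site, since CTCF itself was not mapped here.

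The site in the intron of Ctnnbip1, which encodes an inhibitor of β-catenin, had the highest rank. Its fold was 16.5 and 21.8 in the dCas9 block lists and 17.2 and 20.8 in the dCas9 control lists. In the Ig2b lists its fold was 16.1, 17.0 and 18.1 with the deletion, against 14.6, 15.4 and 13.5 in wild type. The dCas9 groups overlapped, while the 3 deleted lists lay above the 3 wild type lists. The site in the intron of Osbpl5, which encodes a lipid transfer protein, followed with folds of 13.6 and 19.5 in block, 15.7 and 21.0 in control, 15.7, 20.2 and 17.5 in deleted, and 15.4, 16.4 and 14.3 in wild type lists. Its groups overlapped in both comparisons. Over all NIPBL-free distal sites the median fold was also higher in the deleted lists (6.95, 7.35 and 6.79) than in the wild type lists (6.10, 6.20 and 5.43). This order was not particular to the sites. Distal regions with NIPBL had medians of 7.30, 7.52 and 7.20 in deleted against 6.42, 6.66 and 5.63 in wild type lists. Both classes of constant regions near a start showed the same order. Folds of different lists are not on 1 scale, because each list has its own depth and background, so these values rank sites within a list and their differences between lists were not tested.

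The exact core was found on either strand in 7285 of the NIPBL-free distal sites (61.8%), and 6459 of them held exactly 1. A position cannot match on both strands, and the core is by construction part of the 12-letter pattern. To compare regions of different length, the central 300 bp of each was searched. The core was present in 58.7% of the NIPBL-free distal sites (95% Wilson interval 57.8% to 59.6%, counting error only) and in 42.2% of the distal regions with NIPBL (41.0% to 43.3%). Near gene starts the shares were 60.8% without NIPBL and 36.5% with NIPBL. The share in all merged regions was 24.1% and in all 300 bp windows of the genome 5.25%. The regions are not replicates, so these shares are given without a test.

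**Figure D1:**
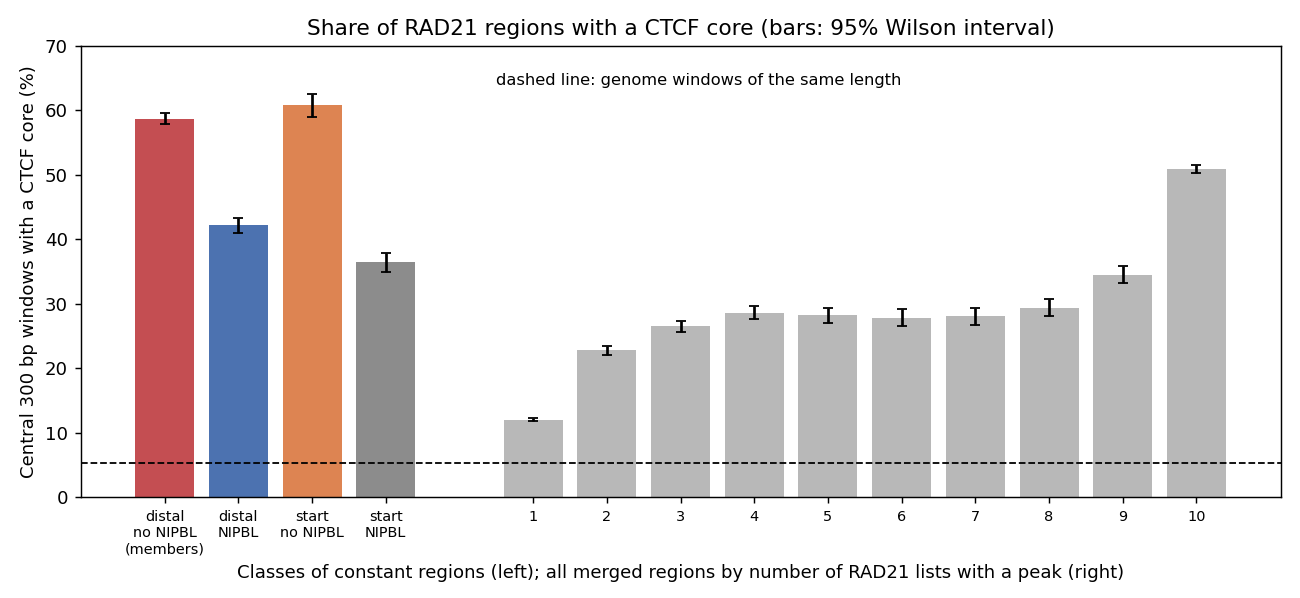
The bars give the share of central 300 bp windows with a CTCF core (y axis, %) in the 4 classes of constant regions (left, NIPBL-free distal sites first) and in all merged regions by the number of RAD21 lists with a peak (right); error bars are 95% Wilson intervals and the dashed line is the genome, 5.25%. The 2 classes without NIPBL stand at 58.7% and 60.8%, above both classes with NIPBL, and the right-hand bars reach 50.98% at 10 lists.

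The core was more frequent in regions that many lists held. It was present in the central 300 bp of 12.02% of regions in 1 list, of 27.9% to 29.4% in 4 to 8 lists with no steady order, of 34.5% in 9 lists and of 50.98% in all 10. Among the NIPBL-free distal sites it was least frequent in the sites of lowest enrichment. When the sites were split by mean fold percentile into 5 bins of equal size, 51.4% of the lowest bin held a core, and between 57.9% and 62.0% of the other bins. It also varied little with the distance of the nearest NIPBL peak, with 57.4% of sites within 500 bp of such a peak and 58.2% of those past 20000 bp.

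Cores stood at the centre of the sites. Over the 8190 cores in NIPBL-free distal sites the median distance from the centre was 20 bp, and 81.2% lay within 50 bp. Near a start the values were 20 bp and 77.9% without NIPBL, and 75 bp and 46.2% with NIPBL. In distal regions with NIPBL the median distance was 37 bp and 56.0% lay within 50 bp. Those regions are wider, with a median of 846 bp against 572.5 bp for the NIPBL-free distal sites, and a wide region is more likely to touch a NIPBL peak, so widths were not tested between the classes.

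**Figure D2:**
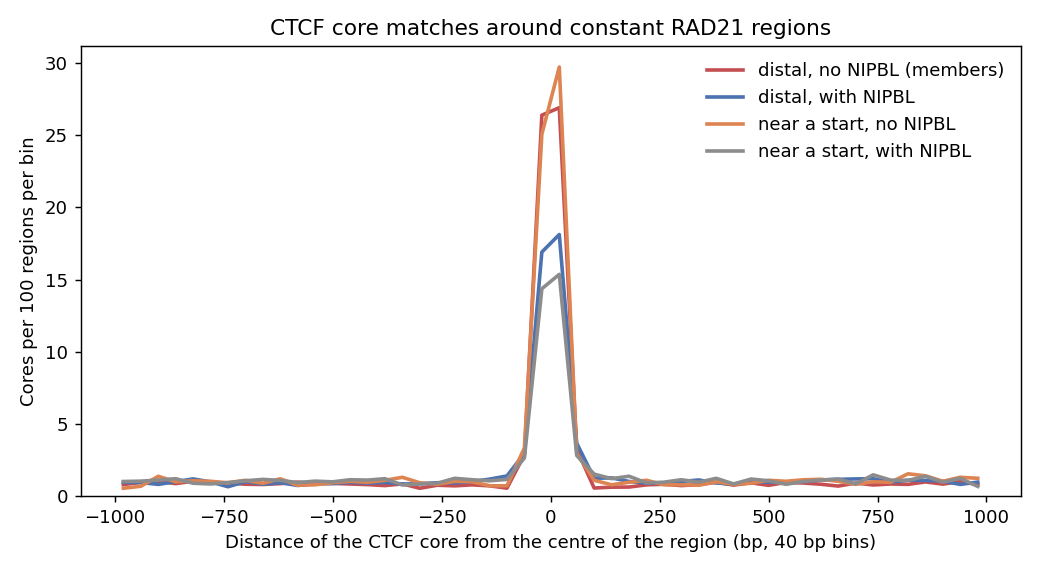
The lines give the number of CTCF cores per 100 regions in bins of 40 bp (y axis) by distance from the centre (x axis, bp) for the 4 classes of constant regions. The NIPBL-free distal sites reach 26.9 cores per 100 sites in the bin from 0 to 40 bp, against 18.1 in distal regions with NIPBL. Regions near a start reach 29.7 without NIPBL and 15.4 with NIPBL in that bin.

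A few spellings of the core made up a large part of the sites. The next 6 sequences are shown because they are the most enriched NIPBL-free distal sites with each of the 6 commonest spellings, among sites with exactly 1 core. Capitals mark the core, again in 60 bases of NCBIM37, 5′ to 3′ on the strand of the core.
Intron of Ablim1, chr19:57235893-57235952, plus strand: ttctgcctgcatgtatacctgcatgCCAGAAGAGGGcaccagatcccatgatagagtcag
Intergenic, nearest start Tmem2, chr19:21822064-21822123, minus strand: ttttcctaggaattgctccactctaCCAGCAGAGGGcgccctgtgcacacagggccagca
Intron of Gucy2c, chr6:136691469-136691528, minus strand: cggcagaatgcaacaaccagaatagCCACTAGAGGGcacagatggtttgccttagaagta
Intergenic, nearest start AC165951.1, chr17:31148626-31148685, plus strand: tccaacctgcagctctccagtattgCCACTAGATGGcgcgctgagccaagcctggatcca
Intergenic, nearest start Gm12376, chr3:36740018-36740077, plus strand: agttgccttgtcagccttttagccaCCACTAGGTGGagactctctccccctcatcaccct
Intergenic, nearest start 5S_rRNA, chr6:144910664-144910723, minus strand: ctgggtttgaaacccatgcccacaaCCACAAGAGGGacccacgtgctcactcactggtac

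CCAGAAGAGGG, the spelling in the Ablim1 intron, was the commonest and stood in 1552 of the 6459 sites with 1 core (24.03%). The same letters occur in B2 SINEs, a family of short mobile repeats that is known to have spread CTCF sites in rodent genomes. No repeat annotation was used here, so copy number stands in for it. The genome held 75129 matches of this spelling, and 81.7% of them belonged to a 20 bp site found more than 10 times. NIPBL-free distal sites took up 2.62% of these matches, and constant regions of any class 5.18%.

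Other spellings that were common among the sites had fewer matches in the genome, and a larger share of these lay in the sites. CCACTAGGTGG had 1383 matches in the genome, of which 23.9% lay in NIPBL-free distal sites and 43.5% in constant regions. For CCACTAGAGGG these shares were 22.7% and 41.1% of 1572 matches, and for CCAGCAGAGGG 9.85% and 19.7% of 4499 matches. These spellings were picked for being common among the sites. Over all spellings, 1.72% of 476869 matches lay in NIPBL-free distal sites and 3.74% in constant regions.

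Copies of the repeated spelling differed among themselves in their flanks. The 20 bp site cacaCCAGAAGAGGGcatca, with the core in capitals, had 10582 copies in the genome, and 30 of them were a NIPBL-free distal site (0.284%). The site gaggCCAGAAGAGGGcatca had 1034 copies and 79 such sites (7.64%), and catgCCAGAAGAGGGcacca, the version in the Ablim1 intron, had 109 copies and 25 such sites (22.9%). These 3 sites were picked after their counts were seen. Reads from repeated sequence can be hard to place, and how the authors treated them is not given in the sources used here.

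Sites with the repeated spelling ranked lower than the rest, a description without a test. Their median mean fold percentile was 69.9 (n = 1552), against 80.1 for sites with another spelling (n = 4907), and 9.54% against 23.5% exceeded the 90th percentile. Even so, the Ablim1 site had a fold of 11.95 and 18.5 in block, 11.5 and 20.6 in control, 17.5, 15.5 and 17.2 in deleted, and 15.1, 14.7 and 12.7 in wild type lists. The repeated spelling stood in 15.1% of the distal regions with NIPBL that held 1 core and in 30.2% of the regions near a start without NIPBL.

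Bases beside the core were also skewed. In the sites with 1 core, the core was followed by C in 76.1%, against 29.5% of all matches in the genome. The base after that was A in 55.8% and G in 37.9%. Position 9 of the core, left free in the search, was G in 63.0% of the sites, against 33.5% of genome matches. The strand was even, with 49.7% of the cores on the plus strand.

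RAD21 peaks were displaced to the 3′ side of the core. For each list, the midpoint of the RAD21 peak was measured from the middle of the core, with positive values towards the 3′ end of the core as written. The median over the 6459 sites with 1 core was 21.5 and 22.5 bp in the dCas9 block lists and 20.0 and 21.5 bp in the control lists. It was 16.5, 17 and 16 bp in the Ig2b deleted lists, against 15, 16 and 14.5 bp in wild type lists. All 10 lists showed the same side, and between 69.6% and 74.5% of the sites in a list had a positive value. The mean over lists was 18.1 ± 3.00 bp (SD, n = 10 lists), and the exact two-sided sign-flip permutation test gave p = 0.00195, the smallest that 10 lists allow.

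The displacement held within each kind of list. The 4 dCas9 lists, called against a control library, averaged 21.4 ± 1.03 bp (exact permutation p = 0.125, the smallest for 4 lists), and the 6 Ig2b lists, whose names give no control library, averaged 15.8 ± 0.931 bp (exact permutation p = 0.0312, the smallest for 6 lists). It was present for the repeated spelling CCAGAAGAGGG, with medians of 14.5 to 22.0 bp, and for the other spellings, with 14 to 22.5 bp. In distal regions with NIPBL the mean was 20.3 ± 3.27 bp (n = 10). The NIPBL-free distal sites minus those regions gave −2.25 ± 1.30 bp, below 0 in 9 lists and at 0 in 1 (exact permutation p = 0.00391). With RAD21 and NIPBL peaks held to a −log10 q of at least 3, which forms the classes anew, that difference was −4.85 bp (exact permutation p = 0.00586). It was −0.575 bp when regions over 1000 bp were left out (exact permutation p = 0.129), so it did not pass the test among regions of more similar length.

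**Figure D3:**
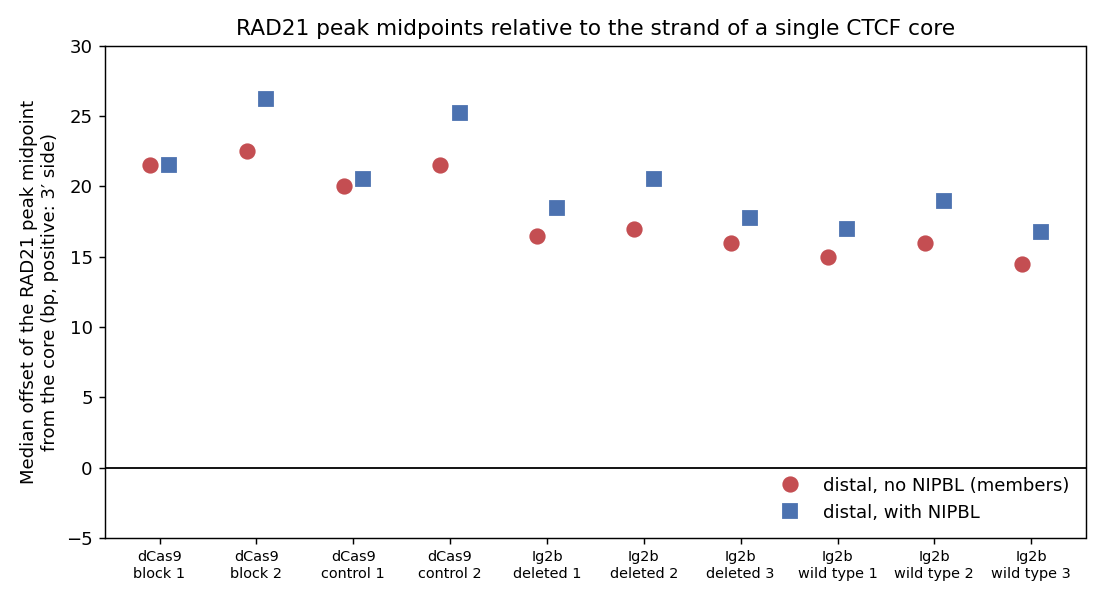
Each point is the median distance of RAD21 peak midpoints from the CTCF core in 1 list (y axis, bp, positive towards the 3′ side) for NIPBL-free distal sites (circles) and distal regions with NIPBL (squares), in sites with exactly 1 core. All 20 points lie above 0. Among the NIPBL-free distal sites the Ig2b lists (14.5 to 17 bp) lie below the dCas9 lists (20.0 to 22.5 bp), while among the distal regions with NIPBL an Ig2b deleted list and a dCas9 control list share the value 20.5 bp.

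The spacing of neighbouring NIPBL-free distal sites differed with the direction of their cores. In 3646 pairs of neighbours both had exactly 1 core, and the 4 arrangements were about equally common: 887 pairs pointed towards each other (convergent), 919 pointed apart (divergent), and 897 and 943 pointed the same way on the plus and the minus strand. Convergent pairs were further apart, with a median of 124.5 kb between centres, against 73.0 kb for divergent pairs and 79.4 and 87.8 kb for the pairs pointing the same way. Only 10.4% of convergent pairs were under 20 kb apart, against 22.2% of divergent pairs. The median was longer for convergent than for divergent pairs on 19 of 20 chromosomes, with chromosome 17 as the exception. Pairs are not replicates and no test was run.

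The share of convergent pairs changed with distance. Among pairs under 5 kb apart 12.5% were convergent and 29.8% divergent (n = 255). Between 200 and 500 kb 31.5% were convergent and 20.5% divergent (n = 616). The same order was seen when neighbours were taken among all constant regions, an alternative added after seeing the data, with medians of 52.1 kb for 1468 convergent and 26.1 kb for 1609 divergent pairs.

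**Figure D4:**
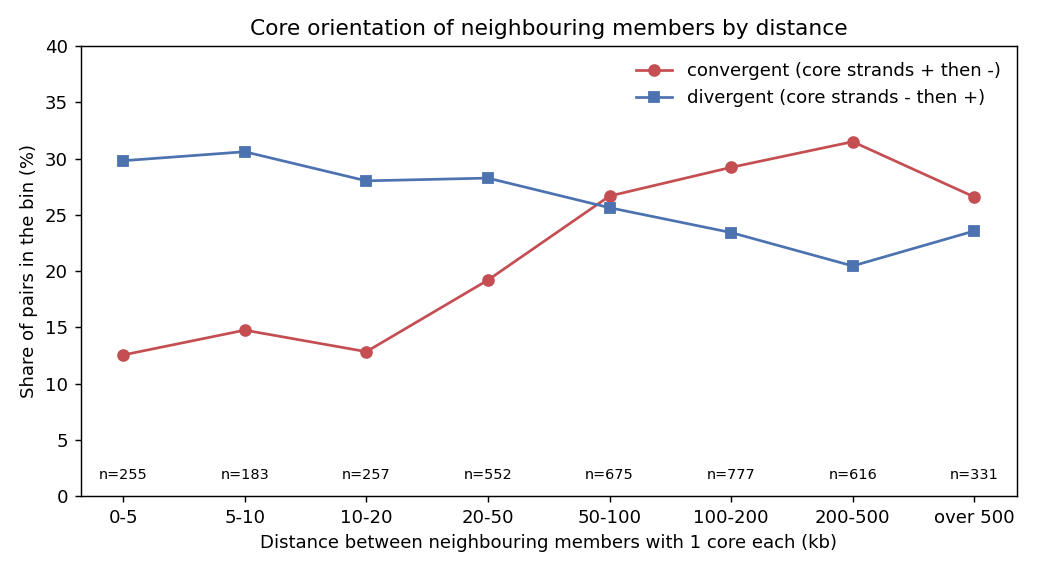
The lines give the share of convergent and divergent pairs (y axis, % of the pairs in a bin) by the distance between neighbouring NIPBL-free distal sites with 1 core each (x axis, kb, unequal bins); n is the number of pairs. Convergent pairs make up 12.5% of pairs under 5 kb and 31.5% of pairs between 200 and 500 kb.

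The sites were spread over all 20 chromosomes at 4.47 per Mb. The density was lowest on X (3.28 per Mb, 547 sites) and highest on chromosome 19 (6.11 per Mb, 375 sites). The median gap was 88.9 kb, and 452 gaps exceeded 1 Mb. The longest stretch without a site was 10.1 Mb at chrX:57717384-67827406. By GENCODE vM1, 46.0% of the sites were in introns, 3.25% in exons and 50.7% between genes, and the median distance to a gene start was 23.9 kb. The furthest site lay 866 kb from any start. GC content of the central 300 bp averaged 43.4 ± 5.82% (SD between sites), against 49.4 ± 6.70% in distal regions with NIPBL and 41.8% in the genome.

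At loci where cohesin loops or B cell gene control are well known the number of sites varied widely. Of 38 listed loci 36 were found in the annotation, each taken with 100 kb on both sides, and 25 held at least 1 site. The Rag1 and Rag2 locus, which encodes the recombinase, held 6 sites in 225 kb (26.7 per Mb), and the Il7r locus, which encodes the receptor for interleukin 7, held 5 in 224 kb (22.3 per Mb). Bcl6, a germinal centre repressor, had 4 in its locus (17.9 per Mb) and Foxo1, a factor that drives Rag expression, had 5 (17.7 per Mb). No site was found around Myc, Sox2, Sox9, Epha4, Gata3, Bcl11b, Ccnd2 or Gata1, nor at the Hoxd, Meg3 to Dlk1 or Ephb6 loci, although 5 constant regions lay at Hoxd and 5 at Meg3 to Dlk1. The loci were chosen with earlier results of these data known, and windows of this length often hold no site at a mean of 4.47 per Mb.

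The highest site at the Il7r locus, chr15:9384366-9386336, stood in an intron of the neighbouring gene Capsl and was 1971 bp wide. Its fold was 11.4 and 14.05 in block, 12.7 and 13.9 in control, 10.5, 11.8 and 14.5 in deleted, and 13.5, 10.9 and 11.9 in wild type lists. Groups overlapped in both comparisons. At the Ikzf1 locus, which encodes the lymphoid factor Ikaros, the highest site was intronic (chr11:11642127-11643382), with folds of 8.57 and 14.2 in block, 8.17 and 13.8 in control, 13.9, 13.1 and 12.9 in deleted, and 10.2, 12.2 and 10.6 in wild type lists. Its 3 deleted lists lay above the 3 wild type lists, and the dCas9 groups overlapped.

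In an intron of Pax5, the factor that commits cells to the B lineage, the highest site (chr4:44590001-44590661) was weaker. Its fold was 5.96 and 10.2 in block, 4.82 and 8.33 in control, 7.20, 5.13 and 6.62 in deleted, and 5.82, 5.39 and 3.93 in wild type lists, so the groups overlapped in both comparisons. At the locus of H19 and Igf2, an imprinted pair of genes with a known CTCF-bound control region between them, the highest site (chr7:149861560-149861947) lay outside the pair, 8.84 kb beyond the start of Igf2. Its fold was 7.55 and 13.6 in block, 6.84 and 11.7 in control, 8.95, 7.69 and 8.09 in deleted, and 5.70, 7.24 and 6.08 in wild type lists. Here too the deleted lists lay above the wild type lists, and the dCas9 groups overlapped.

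Genes of the B and T lineage lists, which include long genes, often contained a site. Of 22350 protein-coding genes 17.1% held at least 1. In the B lineage list 7 of 12 genes did, with 9 sites in 1642 kb: Ebf1 and Erg held 2 each, and Pax5, Ikzf1, Ikzf3, Bach2 and Irf4 held 1 each. Foxo1, Tcf3, Il7r, Lef1 and Blnk held none. The density was 5.48 per Mb, against 4.47 per Mb over all chromosomes. In the T lineage list 4 of 8 genes did, with 7 sites in 610 kb (11.5 per Mb), of which 4 were in Prkcq, a kinase of T cell receptor signalling. None of 5 myeloid and none of 6 erythroid genes did, but these lists covered only 111 kb and 82.2 kb. Long genes hold more sites, and gene length was not matched between lists.

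The widest and the lowest-ranked site were neighbours. The widest, 5593 bp at chr8:74356735-74362327, and the lowest in rank, chr8:74362755-74363609, were next to each other in an intergenic stretch. The widest was covered for 5202 and 1741 bp in block, 4452 and 3168 bp in control, 1695, 3575 and 611 bp in deleted, and 2462, 3349 and 3050 bp in wild type lists, at folds of only 3.51 to 4.11. The lowest in rank had folds of 3.13 to 3.70 in the 10 lists. The core closest to its centre belonged to a 20 bp site with 33341 copies in the genome. The next lowest sites, chr4:145761844-145763548 and chrX:30550162-30550400, had mean fold percentiles of 17.8 and 22.9.

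The limits of the rule cut through a continuous range of distances. The 3 sites nearest to a gene start stood 5003, 5003 and 5004 bp away, with mean fold percentiles of 78.1, 71.2 and 93.4. The 3 constant regions without NIPBL just outside stood 4998, 4995 and 4992 bp away, at 56.5, 71.2 and 65.4. Of the sites nearest to a NIPBL peak, 3 stood 1, 1 and 2 bp from it at percentiles of 95.2, 31.4 and 96.1, and 3 regions that shared 1, 1 and 2 bp with one had 93.5, 91.3 and 69.9. The median distance of a site to the nearest NIPBL peak was 4.58 kb, and 1093 sites lay within 500 bp of one. Of the constant distal regions with NIPBL, 2475 had a peak in only 1 of the 4 lists and 2055 in all 4. A further 2131 distal regions without NIPBL had a peak in 9 of the 10 RAD21 lists, and 725 of them were missing from Ig2b wild type replicate 3, which had the least covered sequence of the 10.

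Between 44783 and 82776 peaks stood in a RAD21 list, over 11.6 to 34.4 Mb, and between 63153 and 123573 in a NIPBL list. Read depth is unknown, and a longer list can come from deeper sequencing. Ranks of the sites correlated between all lists. Spearman's rho of their fold percentile (n = 11790 sites, which share libraries and sequence) was 0.764 to 0.926 between lists of 1 group (8 pairs) and 0.687 to 0.918 between lists of different groups (37 pairs). The dCas9 lists were more alike by replicate number than by treatment. Block and control lists of the same number correlated at 0.918 and 0.916, against 0.764 between the block lists and 0.765 between the control lists. In 11519 sites (97.7%) the 10 lists shared at least 1 base, and 881 sites were above the 90th fold percentile in every list.

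Compared with distal regions with NIPBL, the NIPBL-free distal sites were not uniformly weaker, but the strongest peaks lay in the regions with NIPBL. The highest fold in a list was 16.5 to 23.6 at the sites, against 30.5 to 45.4 at distal regions with NIPBL. The lower end went the other way. The 10th percentile of fold percentile was higher at the sites in every list, from 59.0 against 40.4 in block replicate 1 to 35.4 against 33.7 in wild type replicate 3. Neither was tested. The median fold percentile of the NIPBL-free distal sites was 70.5 to 85.0 in the 10 lists. The difference from distal regions with NIPBL was −1.09 ± 1.08 percentile points (SD, n = 10 lists), below 0 in 8 of 10 lists (exact sign-flip permutation p = 0.0176, adjusted over 3 classes p = 0.0264). It was seen in the Ig2b lists, −1.77 ± 0.665 (6 of 6 below 0, exact permutation p = 0.0312), and not in the dCas9 lists, −0.0658 ± 0.646 (2 of 4 below 0, exact permutation p = 1). The smallest p that 4 lists allow is 0.125, so the test could not have passed there. The dCas9 lists split by replicate number. The difference was −0.457 (block) and −0.771 (control) in replicate 1, and 0.465 (block) and 0.499 (control) in replicate 2. The pooled sign was thus not shared by all dCas9 lists, and whether the 2 kinds of list differ was not tested. The adjusted p of the exact permutation test was 0.0527 when any 1 of 5 Ig2b lists was left out (all but deleted replicate 2), with differences of −1.04 to −0.931 points. With RAD21 and NIPBL peaks held to a −log10 q of at least 3, the regions and both classes were formed anew. The difference was then −3.30 points (adjusted p = 0.0137 by the exact permutation test).

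The sites were also set against regions near a start with and without NIPBL. Against regions near a start with NIPBL the NIPBL-free distal sites stood higher by 2.65 ± 1.44 points in 10 of 10 lists (exact permutation p = 0.00195, adjusted p = 0.00586), in both the dCas9 lists (3.95 ± 0.589) and the Ig2b lists (1.78 ± 1.12). Its size moved with the settings. It was 5.15 points with RAD21 and NIPBL peaks held to a −log10 q of at least 3. It was 4.91 points with a distance of 2 kb from starts and 1.26 points with 10 kb. The limit from width and number of peaks applies here too. Of the regions near a start with NIPBL, 14.6% to 26.8% held more than 1 peak in a list. Against regions near a start without NIPBL the difference was 0.0238 ± 0.337 points, above 0 in 6 of 10 lists (exact permutation p = 0.844). This call changed with the settings. The sites stood higher by 1.07 points at a −log10 q of at least 3 and by 0.992 points with a distance of 2 kb (adjusted p = 0.00586 each by the exact permutation test), and the difference was −0.280 points with 10 kb (adjusted p = 0.0322 by the exact permutation test). Whether the differences with and without NIPBL differ from each other was not tested.

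The guide RNA block was compared with the dCas9 control. The measure was covered bp, the bases of a region under RAD21 peaks of a list. The median over the 11790 sites was 377 and 409 bp in block lists, against 312 and 436 bp in control lists, so the block values lay between the control values. The means were 393 ± 22.6 bp in block and 374 ± 87.7 bp in control (SD, n = 2 each), a difference of 19 bp (exact permutation p = 1, smallest possible 0.333). Peak names split the dCas9 lists by replicate number, and within number the block minus control difference was 65 bp in replicate 1 and −27 bp in replicate 2. The difference was thus smaller than the spread between replicates and did not keep its sign, and without control replicate 1 it was −43 bp.

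No site was called in this comparison. Of the 11790 sites 11663 had a mean of at least 200 covered bp and were tested with limma on log2(covered bp + 100), together with all other regions. At a Benjamini-Hochberg adjusted p under 0.05 none was called, and 0% of all 43823 tested regions were. At an unadjusted p under 0.05 there were 8 sites, 7 of them higher in block, where 0.274% of all tested regions passed. The median log2 difference, block minus control, was 0.07 over the sites and 0.10 over all tested regions, with 5th and 95th percentiles of −0.32 and 0.50 over the sites and a median standard error of 0.36 per site. With 2 lists per group this spread leaves differences of such a size undetectable at single sites.

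The Ig2b deletion was compared with wild type in the same way. The median covered bp over the sites was 293, 328 and 253 bp in deleted lists, against 271, 263 and 244 bp in wild type lists, and the groups overlapped. The means were 291 ± 37.5 bp in deleted and 259 ± 13.9 bp in wild type lists (SD, n = 3 each), a difference of 32 bp (exact permutation p = 0.3, smallest possible 0.1). Divided by the median of all constant regions in the same list, the values were 0.907, 0.884 and 0.927 in deleted and 0.928, 0.910 and 0.938 in wild type lists, a difference of −0.0195 (exact permutation p = 0.2). The NIPBL-free distal sites are themselves 46.0% of the regions behind that median, so the scaling draws this difference towards 0 and nothing is read from its sign.

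No site was called after the deletion either. Of the 11790 sites 10059 passed the same minimum, and none had an adjusted p under 0.05 in limma, where 8 of 28772 tested regions were called (0.0278%), all higher in deleted. At an unadjusted p under 0.05 there were 440 sites, 407 higher and 33 lower in deleted, where 8.12% of all tested regions passed. The median log2 difference, deleted minus wild type, was 0.14 over the sites and 0.19 over all tested regions. With each list centred on the median of constant regions the split of these sites became 198 higher and 206 lower, where 7.9% of all tested regions passed, and the median became −0.02, a balance near 0 that the centring itself brings about. With RAD21 and NIPBL peaks held to a −log10 q of at least 3, the regions and sites were formed anew. Of 10042 tested sites of that set 1 was called in limma, where 155 of 19068 tested regions were (0.813%). The site was chr2:135974634-135975606 in Pak7, which encodes a kinase. Picked after its values were seen, it was covered for 701, 551 and 818 bp in deleted lists, against 259, 248 and 215 bp in wild type lists, a log2 difference of 1.20 with an adjusted p of 0.0445. Covered length in the deleted lists was thus greater at 78.1% of the tested sites and at 78.9% of all tested regions, and the lists differ in the total sequence covered, 18.2, 25.1 and 11.9 Mb in deleted against 14.2, 15.2 and 11.6 Mb in wild type. The part of list size in this was not tested.

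**Figure D5:**
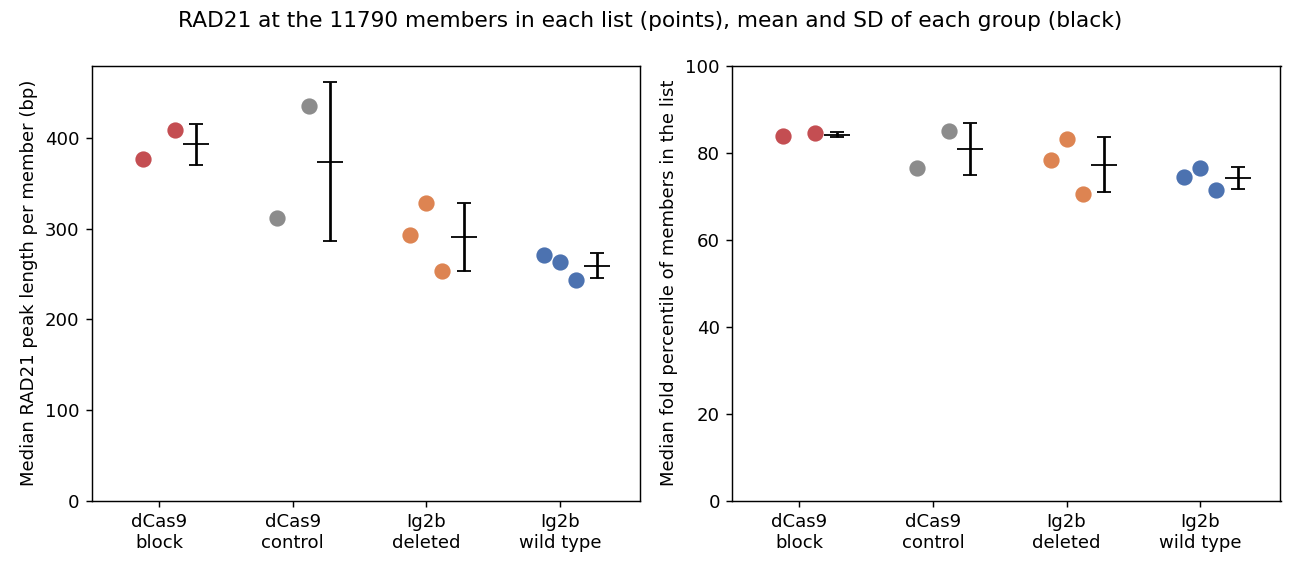
Points give, for each RAD21 list, the median bases under peaks per NIPBL-free distal site (left, bp) and the median fold percentile (right); black marks give the mean and SD of each group (n = 2 for dCas9 block and control, n = 3 for Ig2b deleted and wild type). The block lists (377 and 409 bp) lie between the control lists (312 and 436 bp), and the deleted and wild type lists overlap.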

How the data were processed

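Per the labels' protocols, cells were fixed in 1% formaldehyde for 10 min and chromatin was precipitated with 5 ug of antibody. Of 18 samples, 14 had a peak list, and the 4 inputs were not used here. The submitters' processing notes name the build mm9, the aligner Bowtie2 2.2.8, SAMtools 1.8 and the peak caller MACS2, of no given version. Peaks were called per library. Each peak's fold, a ratio, was computed by the authors, and −log10 p and −log10 q stand beside it in the deposited lists. The score column of the deposited lists was not used. Per the peak names, the dCas9 and NIPBL lists had a control and those of the Ig2b libraries named no control and were marked as without duplicates. Read depth is unknown, so no depth interval is given.

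Regions were merged at an overlap of 1 bp. Sequences and gene starts came from NCBIM37 and GENCODE vM1. Covered bp was tested with limma 3.58.1 in R 4.3.3 without scaling between lists. Exact permutation tests, all two-sided, compared values per list. Python 3.11.15 did the rest, with pandas 2.3.3, numpy 2.4.6, matplotlib 3.10.9 and scipy 1.17.1. Fits were tested on simulated data. Named sites were the 8 highest and 3 lowest by mean fold percentile, any called, 3 on each side of each limit, the widest, the longest gap and the highest at each locus. Genes without a unique annotation entry were left out. The members, loci, gene lists and tests were chosen with earlier results of these data known. Alternatives were −log10 q of at least 3, other distances, scalings, filters and cores, a replicate block, and leaving out each list. The q limit was put on RAD21 and NIPBL peaks alike, and regions and classes were formed anew, unless RAD21 alone is named.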

Additional observations from a re-analysis of the deposited data

Results flagged for a closer look

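The median fold percentile of the NIPBL-free distal sites minus that of constant regions near a start without NIPBL was above 0 in every Ig2b deleted list (mean 0.209 points) and below 0 in every dCas9 control list. The sign thus differed between these groups, and the difference between them was not tested. The values were 0.0575, 0.230 and 0.341 points in the Ig2b deleted lists, against −0.750 and −0.110 points in the dCas9 control lists. Many pairs of groups were looked at, and the groups also differ in how their peaks were called.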

How the results depend on the processing

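The number of NIPBL-free distal sites was 7259 when only the RAD21 peaks were held to a −log10 q of at least 3. It was 10106 with RAD21 and NIPBL peaks both held to it, as in the rest of this section. With 1 list left out it was 11832 to 12842. Distances of 2 and 10 kb gave 13456 and 9682 sites. With only the NIPBL dCas9 control lists there were 13892, and 17389 when NIPBL peaks had to cover at least 50% of a region. The other settings tried gave 10578 to 10697. The share with a CTCF core was 47.8% with 1 more letter (the C after the core), 58.7% and 54.1% in the central 300 and 100 bp, and 63.6% at a −log10 q of at least 3. In covered bp, block minus control was −0.0225 relative to all constant regions, and −43 to 81 bp when 1 list was left out (−43 without control replicate 1). Deleted minus wild type was −0.0195 relative to all constant regions, and 13.7 to 51.2 bp when 1 list was left out. In limma 0 sites were called in every leave-one-out fit of either comparison (range 0 to 0), and 1 site was called in the deletion at a −log10 q of at least 3, where 150 regions were higher and 5 lower. The replicate numbers do not pair the lists by the labels: deviations of same-numbered lists correlated at 0.623 in the dCas9 lists and at 0.0214, 0.105 and 0.153 in the Ig2b lists. With replicate number as a block 0 sites were called in either comparison, and 0 with block and centring together, which was added after seeing the data. In all regions the 8 calls of the deletion fell to 0 with the replicate block, and 35 higher and 1 lower were called without deleted replicate 3. Fold percentile against distal regions with NIPBL was −3.30 at a −log10 q of at least 3 and ranged from −1.27 to −0.931 with 1 list left out: −1.04, −0.958, −0.993, −0.931 and −1.02 without deleted 1 and 3 and wild type 1, 2 and 3. Against regions near a start without NIPBL it was 1.07 at a −log10 q of at least 3, 0.992 with a distance of 2 kb and −0.280 with 10 kb, each past the threshold, and −0.0117 to 0.110 with 1 list left out, below 0 without block replicate 2 (−0.00126), deleted replicate 3 (−0.0114) or wild type replicate 2 (−0.0117). Against regions near a start with NIPBL it was 5.15, 4.91 and 1.26 under these 3 settings and 2.40 to 2.88 with 1 list left out. The offset from the core was 17.6 to 18.4 bp and its difference from distal regions with NIPBL −2.50 to −2.08 bp with 1 list left out, and the difference was −4.85 bp at a −log10 q of at least 3 and −0.575 bp in regions of 1000 bp or less. The causes were not tested. Over these results and settings, 122 values stayed on their side, 6 lost and 2 gained the threshold, 7 changed sign and 6 moved. A value that changed sign was counted only as such. The value with 10 kb against regions near a start without NIPBL is counted there, though it also passed the threshold (adjusted p = 0.0322 by the exact permutation test). Presence of a peak depends on a depth that is unknown.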
